A study of Mus musculus with 30 samples.

Results

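In a glioma-bearing mouse brain, macrophages that carried tumor-derived GFP were sorted into a CCR2high and a CCR2low population, and the transcriptomes of these GFPpos populations were compared. The samples were chosen by their labels as the CCR2high and the CCR2low brain macrophages that were GFPpos. They came from mice 22, 23, 24 and 26, and each mouse gave 1 sample of each population, so that 8 of the 30 samples of the series enter the comparison and the comparison is paired within the mouse. All mice, with no control strain among them, were heterozygous C57BL6.CCR2RFP/WT animals aged 12 to 18 weeks, in which a gene for red fluorescent protein replaces one Ccr2 allele. GL261, a mouse glioma cell line syngeneic to this strain, was implanted in the striatum after it had been made to express palmitoylated GFP, which anchors in cell membranes. GFPpos therefore stands for cells that had taken up or bound membrane of the tumor cells. The series also holds GFPneg macrophages of both kinds, brain monocytes with and without GFP, and Ly6Chigh and Ly6Clow blood monocytes of the same mice. Brain macrophages were sorted with antibodies against CD11b, CD45, F4/80 and Ly6C. No antibody against CCR2 is listed in the methods, so how CCR2 was read in the sort is not given in the sources used here, and the Ccr2 transcript was checked against it. The model is limited to 1 tumor line and 4 mice, and microglia were to be kept out of the sort by high CD45 and CD11b alone.

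CCR2 is the receptor for the chemokine CCL2 and guides Ly6Chigh monocytes from bone marrow and blood into inflamed tissue. As these cells become macrophages they lose CCR2 and Ly6C and gain F4/80, and some take on features of dendritic cells, such as presentation of antigen on MHC class II. Microglia, the resident macrophages of the brain, derive from the yolk sac and are marked by genes such as Tmem119, P2ry12 and Sall1.

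RNA was amplified from poly-A transcripts at very low input and sequenced without molecular identifiers. Counts on genes ran from 1710065 to 4825813 per library in the CCR2high and from 1845495 to 4201890 in the CCR2low population, and 9815 to 12228 and 10985 to 11928 genes had at least 5 reads. Levels are given as CPM, a gene's counts scaled to the library's total on genes with TMM correction, always in the order of mice 22, 23, 24 and 26. They compare a gene between libraries and not one gene with another, since they are not divided by gene length. The female transcript Xist was listed at 0 in the 6 libraries of mice 22, 23 and 24 and reached 77.7 and 69.7 CPM in those of mouse 26, in which the 4 Y-linked genes tested had no count, so both libraries of each mouse were alike in sex. The CCR2high library of mouse 24 lay far below the rest of its group in Moxd1, Clec4e, Cd4 and Ptprz1, and had the fewest genes detected. A count of 0 in that library allows up to 3 counts, or 1.83 CPM, and such limits cover counting error alone.

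Of the genes behind the sort, Ccr2 followed the gate in each mouse, and no sort marker passed the test across all genes. Ccr2 (chr9, 124101950 to 124113557, mm10) had 139.6, 149, 57.4 and 200.1 CPM in the CCR2high and 42.7, 108, 35.2 and 71.8 CPM in the CCR2low macrophages. The populations overlapped, because the CCR2high level of mouse 24 lay below the CCR2low levels of mice 23 and 26, but the CCR2high library was higher in 4 of 4 mice. The log2 fold change was 1.11 ± 0.30 (SE), which did not pass across all genes (adjusted p 0.881, edgeR). Adgre1, which encodes F4/80, was at 638, 613, 536 and 831 CPM in CCR2high and 678, 1025, 732 and 883 CPM in CCR2low cells, lower in CCR2high in each mouse without passing the test (log2 fold change -0.34 ± 0.22 (SE), adjusted p 1). Itgam (CD11b), Ptprc (CD45) and Ly6c2 (Ly6C) had log2 fold changes of -0.30, 0.03 and 0.33, and that of Ptprc changed sign under spike-in scaling. Ly6c2 shares 9.46% of its 75-base sequence windows with other genes, mostly Ly6c1. Both populations were far below the brain monocytes in the transcript of Ly6C. GFPpos monocytes had 3 replicates, of mice 22, 24 and 26, and that of mouse 22 was the sum of 2 libraries. Their mean was 1975 CPM. CCR2high macrophages had 159, 236, 185 and 121 CPM and CCR2low macrophages 132, 122, 224 and 78.2 CPM. The 13 microglia genes summed to 4612 to 6292 CPM in the CCR2high and 5559 to 8344 CPM in the CCR2low macrophages, against 4203 to 6058 CPM in the GFPpos and 2811 to 4335 CPM in the GFPneg brain monocytes and 387 to 1246 CPM in the blood monocytes. Transcripts of this list were thus present in all sorted brain populations.

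Few genes were called between the CCR2high and CCR2low GFPpos macrophages, which does not show that the populations were alike. Of 11566 genes tested, 1 gene (0.00865%) was called at an adjusted p under 0.05, Ly6i, and it was higher in CCR2high cells. The next smallest adjusted p was 0.400. For the lower direction the edgeR count was 0, with 268 genes (2.32%) lower at an unadjusted p under 0.05, and a Wald test in DESeq2 called 4 genes higher and 7 lower. At the same unadjusted threshold 154 genes (1.33%) were higher. Each of the 4 mice had the higher level in CCR2high cells for 863 genes (7.46%) and the lower level for 1085 genes (9.38%), and for 323 genes (2.79%) the populations did not overlap. For the 8068 genes at a mean of 10 CPM or more, the 95% interval of the log2 fold change reached a median of 0.934 each way. This interval is not adjusted for the number of genes tested. Smaller differences were thus mostly not detectable in this fit, and larger ones could also go uncalled. Examples are log2 fold changes of 1.92 for Ccl22 and 2.45 for Il4i1 (both adjusted p 0.824, edgeR). In bulk samples such as these, fewer cells of a type and less RNA per cell cannot be told apart.

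Ly6i encodes a GPI-anchored surface protein of the Ly6 family and lies next to Ly6c and Ly6a genes on chromosome 15 (74979534 to 74983430, mm10). It stood at 692, 409, 504 and 124 CPM in CCR2high and at 330.0, 179.9, 194 and 52.7 CPM in CCR2low macrophages. The level differed widely between mice, with mouse 22 highest and mouse 26 lowest in both populations, so the groups overlapped while CCR2high was higher in each mouse. The log2 fold change was 1.21 ± 0.19 (SE), with an adjusted p of 0.0139, and the GFPpos brain monocytes had a mean of 1343 CPM. Only 0.519% of its 75-base windows occur in another gene, Ly6a. The call rests on the pairing: without the mouse in the model the log2 fold change was 1.19 at an unadjusted p of 0.0539. It was also lost under spike-in scaling (0.89, adjusted p 1) and in a fit on these 8 libraries alone (1.22, adjusted p 0.0787). Leaving out mouse 22, 23, 24 or 26 gave log2 fold changes of 1.28, 1.24, 1.14 and 1.19 with adjusted p of 0.168, 0.462, 0.252 and 0.134. Leaving out 1 library at a time gave 1.12 to 1.27, and the call held only without the CCR2high library of mouse 26 (adjusted p 0.0227). Without the CCR2high library of mouse 22, 23 or 24 the adjusted p was 0.057, 0.0652 and 0.113, and without the CCR2low library of mouse 22, 23, 24 or 26 it was 0.0672, 0.113, 0.0906 and 0.164.

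The genes that came next in the same direction were chosen as the 12 with the strongest evidence among those higher in CCR2high cells in each mouse, so that direction is not a finding. They hold the monocyte genes Ccr2, Napsa and Plac8, the chemokines Ccl17 and Ccl22, the enzymes Il4i1 and Cyp4f18, and Lsp1, Ifitm1, Syngr2, Tuba4a and Ly6i itself. The adjusted p of the 11 other than Ly6i ran from 0.593 to 1 in this fit. Napsa, an aspartic protease, had 184, 144, 206 and 201 CPM in CCR2high against 105, 88.7, 131 and 46.3 CPM in CCR2low cells, with the lowest CCR2high library above the highest CCR2low one. Its log2 fold change was 1.06 ± 0.25 (SE). Napsa shares 13.3% of its 75-base windows with Gm15396, and Tuba4a shares 33.4% with Stk16. Plac8, a small cysteine-rich protein abundant in monocytes, had 169, 297, 198 and 133 against 107, 139, 167 and 78.8 CPM, which overlap (log2 fold change 0.69 ± 0.22 (SE)).

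**Figure D1:**
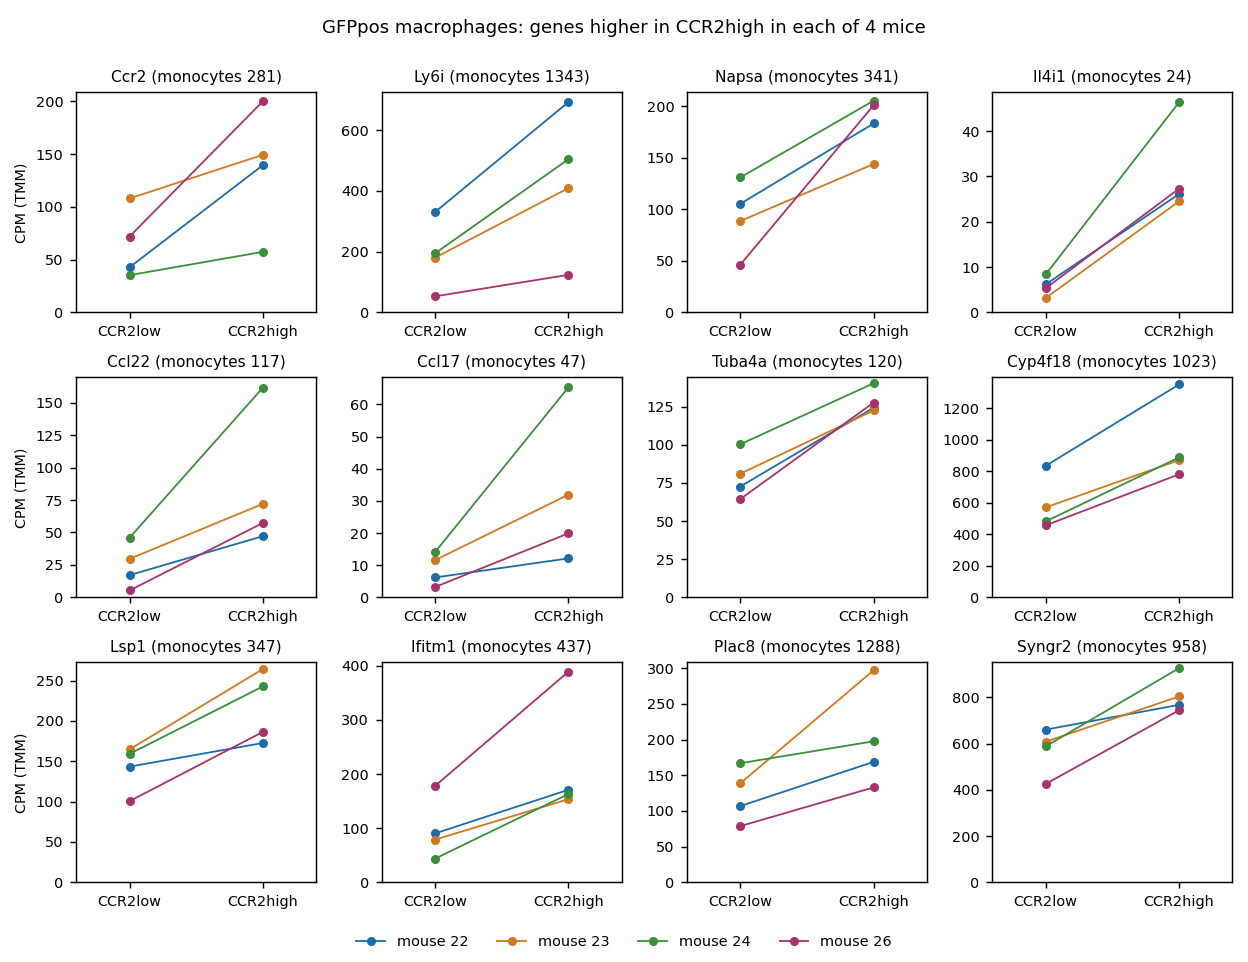
CPM of the 12 genes in CCR2low (left) and CCR2high (right) GFPpos macrophages on linear axes from 0. There is a line for each of mice 22, 23, 24 and 26. Beside each name is the mean CPM of the GFPpos brain monocytes of mice 22, 24 and 26. Each line goes up because the genes were chosen for it, and Ly6i runs from 52.7 to 330 CPM in CCR2low and from 124 to 692 CPM in CCR2high cells.

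CCL22 and CCL17 are the ligands of CCR4, a receptor of regulatory and Th2 T cells, and are made by dendritic cells and alternatively activated macrophages. Ccl22 had 47.2, 72.1, 162 and 57.4 CPM in CCR2high and 17.1, 29.6, 46 and 5.32 CPM in CCR2low macrophages, and the populations did not overlap. Its log2 fold change of 1.92 ± 0.48 (SE) was among the largest of the 12 genes. Ccl17 had 12.1, 31.9, 65.3 and 19.9 against 6.17, 11.5, 14 and 3.19 CPM (log2 fold change 1.81 ± 0.47 (SE)), with the highest level of both chemokines in mouse 24. Il4i1, a secreted amino acid oxidase that restrains T cells, had 26.1, 24.5, 46.4 and 27.3 against 6.17, 3.17, 8.36 and 5.32 CPM (log2 fold change 2.45 ± 0.60 (SE)) and did not overlap. The count of Il4i1 is uncertain, because 72.7% of its 75-base windows lie in overlapping genes such as Nup62 and Atf5. Cyp4f18, which inactivates leukotriene B4, had 1350.3, 870.4, 887 and 780.3 against 834, 570.0, 481 and 457 CPM (log2 fold change 0.74 ± 0.21 (SE)). For 10 of the 12 genes the mean of the GFPpos brain monocytes was higher still than that of the CCR2high macrophages, which holds for 42% of all genes with a higher mean in CCR2high than in CCR2low cells. The exceptions were Il4i1, at 24.4 CPM in monocytes, and Tuba4a, at 120.0 CPM. Of the 12 genes chosen as lower, described further on, 0 had a monocyte mean lower still, against 38.2% of all genes with a lower mean in CCR2high cells. The monocyte means lack mouse 23, so they are not paired with the macrophage means. Monocytes of mice 22, 24 and 26 had 76.7, 48.9 and 1067 CPM of Moxd1 and 4.87, 15 and 155 CPM of Adamts1. The CCR2high means were 79.4 and 18.5 CPM, so for these genes the order rests on mouse 26. For mt-Cytb mouse 26 was lowest, at 1943, 1847 and 1189 CPM.

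The fit above takes its estimate of the spread from all 8 populations, blood included. At an unadjusted p under 0.05 (edgeR) it had 422 of 11566 genes (3.65%). If no gene differed, a share of 0.05 would be awaited. Fits on the 4 macrophage populations and on the 8 libraries compared had 1074 of 10578 and 741 of 10152 genes at that threshold. A fit on the 4 macrophage populations alone, with the mouse in the model, had a median standard error of 0.329 against 0.587 and called 22 of 10578 genes (0.208%), 13 higher and 9 lower in GFPpos CCR2high cells. The higher genes were Ly6i, Gpr171, Il4i1, Ccr7, Cyp4f18, Il1b, Ccr2, Napsa, Plet1, Ifitm1, Il1r2, Zfp36 and Osm, and the lower ones mt-Co1, mt-Cytb, mt-Rnr1, mt-Nd5, mt-Nd1, mt-Nd4, Cd4, Cd79a and Ckb. All 22 moved the same way in each of the 4 mice, which a call in a fit paired by mouse largely implies. Of the 11566 genes tested on all populations, 7.46% were higher and 9.38% lower in each mouse. For the 21 genes other than Ly6i the adjusted p in the other fits ran from 0.0092 to 1, and 19 of their 546 values passed. Leaving out mouse 22, 23, 24 or 26 from this fit gave 0, 13, 0 and 8 calls over all genes, not all of them among the 22. None of the 22 genes was called in all 4 of these fits, and 10 were called in none. Without the mouse in the model no gene was called.

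Several of these genes act in migration and inflammation, and all values of change in this paragraph are from the fit on macrophages. Ccr7, the receptor that takes dendritic cells to lymph nodes, had 194, 175, 298 and 360.0 CPM in CCR2high and 101, 90.1, 185 and 91 CPM in CCR2low macrophages (log2 fold change 1.16 ± 0.17 (SE), adjusted p 0.00831). The CCR2high level of mouse 23 lay below the CCR2low level of mouse 24, so the groups overlapped. Il1b, the inflammatory cytokine interleukin 1 beta, had 1609.6, 919.6, 1089 and 2691 against 1243, 418, 776 and 1534 CPM (log2 fold change 0.71 ± 0.12 (SE), adjusted p 0.0203), high in mice 22 and 26 in both populations. Il1r2, its decoy receptor, had 114, 64.9, 115 and 438 against 51.3, 38.9, 35.2 and 166 CPM (log2 fold change 1.27 ± 0.23 (SE), adjusted p 0.0351), with mouse 26 highest. Oncostatin M (Osm), a cytokine of the IL6 family, had 533, 508, 871 and 1067 against 437, 321, 522 and 554 CPM and a log2 fold change of 0.67 ± 0.13 (SE). Zfp36, which promotes decay of cytokine transcripts and belongs to the list of genes induced by tissue dissociation, had 2827, 2348, 2848 and 2879.7 against 2216, 1794, 2057 and 1925 CPM without overlap (log2 fold change 0.45 ± 0.09 (SE)). Gpr171, a G protein-coupled receptor, had 396, 283, 299 and 304 against 258, 150.0, 143 and 174 CPM, also without overlap, and Plet1, a GPI-anchored surface protein, had 50.3, 38.1, 79.9 and 53.7 against 10.9, 14.3, 42.4 and 14.9 CPM.

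The list of 22 monocyte genes leaned toward CCR2high cells. It holds Ccr2, the gene of the gate itself, whose direction is therefore no finding. All 22 were tested, 20 had a positive fitted log2 fold change and their median was 0.56, against -0.01 over all genes. Of these, 6 were higher at an unadjusted p under 0.05 and 0 were lower, none passed across all genes, and 7 were higher and 1 lower in each mouse. Over all genes 1.33% were higher at that threshold and 7.46% higher in each mouse. Summed over the list, CCR2high libraries had 4639, 4829, 3907 and 7759 CPM and CCR2low libraries 3700, 3585, 3217 and 5574 CPM, higher in CCR2high in every mouse by less than the difference between mice. The GFPpos brain monocytes summed to 9917 to 14007 CPM. The 6 genes were Napsa, Ccr2, Plac8, Ifitm6, Nr4a1 and Clec4e. Ifitm6, of the interferon-induced transmembrane family, had 8.92, 8.44, 18.9 and 8.79 against 1.9, 4.07, 5.38 and 1.6 CPM without overlap, and Nr4a1, an orphan nuclear receptor needed for Ly6Clow monocytes, had 157, 125, 240.4 and 620.2 against 112, 122, 165 and 274 CPM. Fn1 (fibronectin) went the other way in each mouse, with 150.4, 312, 43.9 and 897 against 286, 397, 173 and 984 CPM and a log2 fold change of -0.73 ± 0.49 (SE). Without mouse 26 the median of the list was 0.34.

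Genes of dendritic cells gave the largest median of all lists, 0.8 over 18 tested genes, of which 6 were higher and 0 lower at an unadjusted p under 0.05 and none passed across all genes. Those 6 were Ccl22, Ccl17, Ccr7, Cd209a, Flt3 and Clec10a. Of the 18, 14 had a positive and 4 a negative fitted value, and 8 were higher and 1 lower in each mouse. Over all genes 1.33% were higher at that threshold and 7.46% higher in each mouse. Flt3, the receptor for the growth factor of dendritic cells, had 9.56, 15.9, 9.76 and 13.6 against 3.32, 2.94, 4.78 and 7.98 CPM without overlap. Clec10a, a lectin of conventional type 2 dendritic cells, had 25.5, 31.1, 18.3 and 35.9 against 14.2, 9.96, 17 and 19.2 CPM, and Cd209a, a lectin of monocyte-derived dendritic cells, had 22.3, 13.8, 58 and 3.24 against 3.32, 0, 27.8 and 4.79 CPM, which was not higher in mouse 26. The median of this list was 0.54 without the CCR2low library of mouse 22 and 1.03 without mouse 24.

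MHC class II transcripts were measured in both populations with overlapping levels. Cd74, the invariant chain, had 29913, 16679, 26825 and 14359 CPM in CCR2high and 25657, 15061, 16154 and 13916 CPM in CCR2low macrophages, higher in CCR2high in each mouse but with a larger spread between mice (log2 fold change 0.30 ± 0.29 (SE), adjusted p 1). H2-Ab1, a chain of the class II molecule, had 16762, 9349, 15826 and 7495 against 14348, 8255, 9939 and 6856 CPM (log2 fold change 0.30 ± 0.24 (SE)). Spike-in scaling, which moved the median of all genes from -0.01 to -0.32, put them at -0.05 and -0.01, still above that median. Of the 13 class II genes 12 had a positive fitted value, 6 were higher in each mouse and 0 reached an unadjusted p under 0.05 in either direction, and their median was 0.26. It was 0.15 without the CCR2low library of mouse 23. H2-DMb2, of the peptide loading complex, had the smallest p, with 217, 140.0, 254 and 94.4 against 175, 116, 199 and 47.4 CPM and a log2 fold change of 0.47 ± 0.28 (SE).

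Among cytokines and their receptors, 4 of 26 tested genes were higher at an unadjusted p under 0.05 and 0 were lower, with a median of 0.23. They were Il1b, Il1r2, Ifngr1 and Il6ra. Ifngr1, a chain of the interferon gamma receptor, had 519, 523, 704 and 587 against 474, 442, 491 and 429 CPM. Of 13 chemokine receptors, Ccr2, Ccr7 and Ccrl2 were higher and Ackr3 was lower at that threshold, with a median of 0.37. Ccr2 is the gene of the gate, so its direction is no finding. Ccrl2, an atypical receptor that presents chemerin, had 827, 587, 734 and 1594 against 665, 360.0, 598 and 1056 CPM. Of 12 CC chemokines Ccl17 and Ccl22 alone reached it, and of 11 CXC chemokines none, with medians of 0.19 and 0.22. The CC median was 0.01 without mouse 24, and the CXC median was 0.04 without the CCR2high library of mouse 23. Single genes reached it among 34 interferon-stimulated genes (Irf7, 1067, 718, 1165 and 758 against 729, 539.7, 906 and 452 CPM), 14 costimulation genes (Tnfsf9, the ligand of 4-1BB, 32.5, 29.2, 28.1 and 78.2 against 7.12, 16.7, 17.6 and 42.6 CPM), 16 genes of the NF-kB pathway (Nfkbie, an inhibitor of it), 16 polarization genes (Ass1) and 18 MHC class I genes (Psmb8), where 1.33% of all genes were higher at it, so these counts say little of their lists. Among 23 myeloid transcription factors they were Nr4a1 and Bhlhe40, and among 23 genes induced by tissue dissociation Nr4a1 again, while Zfp36 was the call of this list in the macrophage fit. That last list had 21 positive fitted values, a median of 0.2 and a higher sum in CCR2high cells in 4 of 4 mice, between 10487 and 15841 CPM against 7815 and 11852 CPM. Its part in the other results was not tested. Spike-in scaling moved the median of all genes from -0.01 to -0.32, and with it every positive list median but those of monocyte, dendritic cell and chemokine receptor genes turned negative. Relative to the median of all genes most lists moved little: 0.57 became 0.52 for monocyte, 0.81 became 0.74 for dendritic cell, 0.27 stayed 0.27 for MHC class II, 0.24 became 0.21 for cytokine and 0.28 stayed 0.28 for NF-kB genes, while -0.15 became -0.31 for microglia and -0.01 became -0.48 for neutrophil genes.

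**Figure D2:**
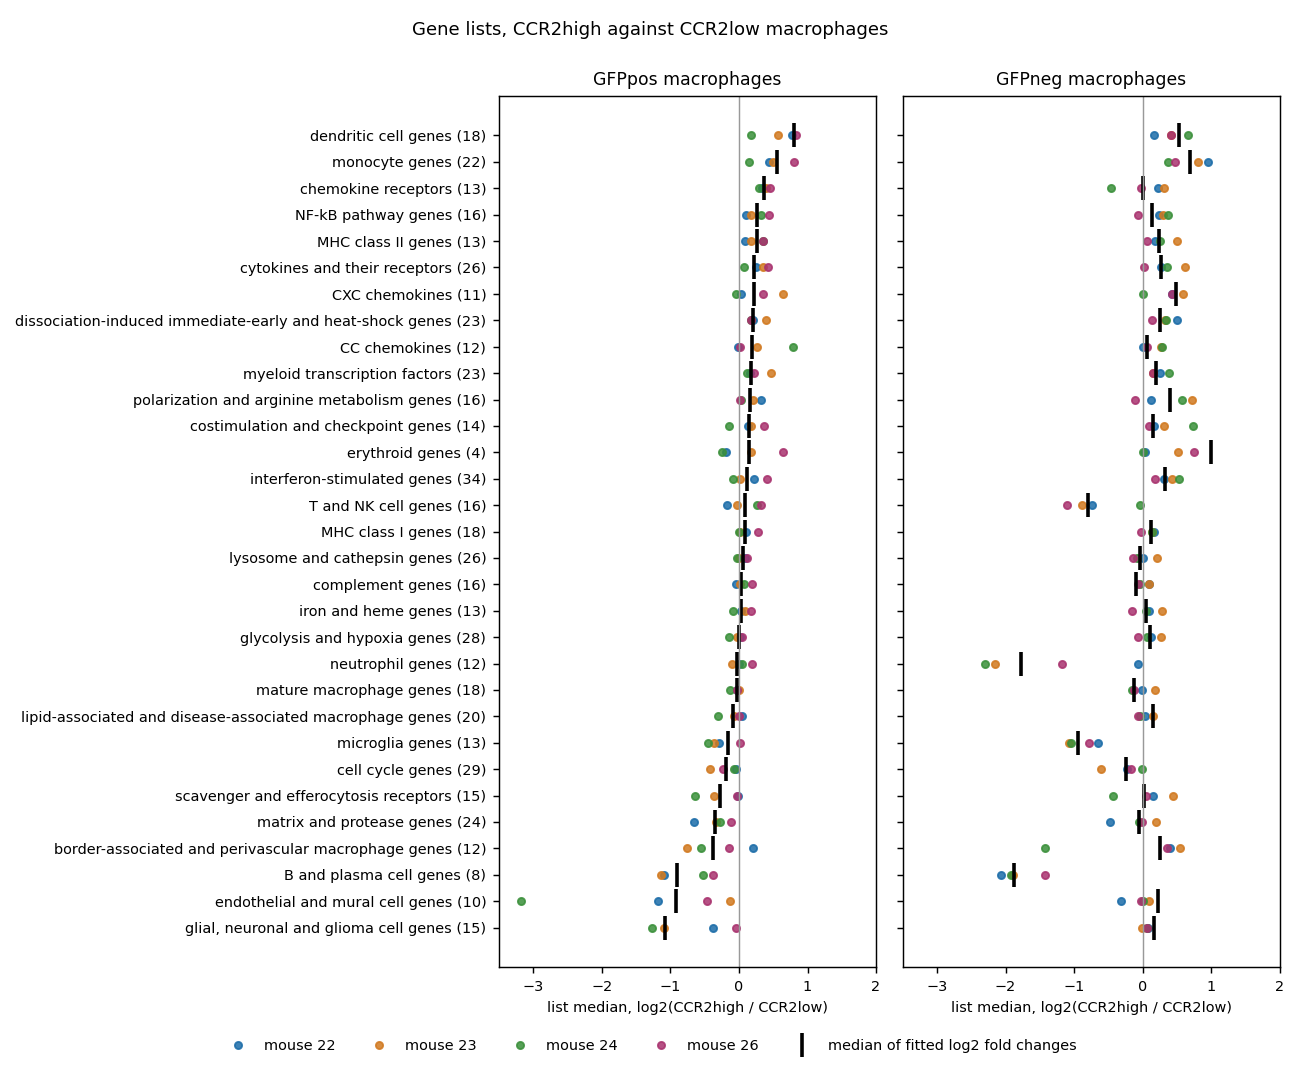
Median log2 ratio of CCR2high to CCR2low over the tested genes of 31 lists (number in brackets) in GFPpos and GFPneg macrophages, as 1 point for each mouse and a bar for the median of the fitted values. In GFPpos cells dendritic cell genes lie highest, at 0.8, and glial, neuronal and glioma cell genes lowest, at -1.08.

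Genes of the mitochondrial genome went the other way. They are not one of the 33 lists. mt-Rnr1, mt-Rnr2 and mt-Cytb were among the 12 genes chosen as lower, so the group is not independent of that choice. Of 10 tested, 10 had a negative fitted log2 fold change, 9 were lower at an unadjusted p under 0.05 and in each mouse, and the median was -0.76. Over all genes 2.32% were lower at that threshold and 9.38% in each mouse. Genes are not replicates, so these counts are a description. In the fit on macrophages alone 6 of 10 were called, against 0.208% of all genes. The mitochondrial genes took 0.648% to 0.912% of the gene counts in the CCR2high and 1.17% to 1.56% in the CCR2low libraries, without overlap. mt-Cytb, the cytochrome b of complex III, had 1000.4, 1072, 1092 and 1175 against 1727, 1553, 2202 and 1901 CPM (log2 fold change -0.75 ± 0.09 (SE), adjusted p 0.00226 in the macrophage fit). mt-Co1, a subunit of complex IV, had 1849.9, 1999, 2448 and 2366 against 2958, 3019, 3741 and 3359 CPM (log2 fold change -0.59 ± 0.07 (SE), adjusted p 0.00226 in that fit). mt-Rnr1, the small ribosomal RNA, had 206, 384, 237 and 443 against 394, 541, 703 and 1129.9 CPM and a log2 fold change of -1.08 ± 0.24 (SE) in the fit on all populations (adjusted p 0.593). In GFPneg macrophages the median of the 10 genes was -0.51. The GFPpos brain monocytes had means of 1659.8 CPM for mt-Cytb and 2819 CPM for mt-Co1.

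The remaining 9 of the 12 genes chosen as lower in each mouse were Tuba1a, Serpina3n, Chl1, Tubb2b, Cldn5, Col18a1, Adamts1, Dbi and Moxd1, with adjusted p from 0.593 to 1. Several are genes of neural, endothelial or matrix-forming cells. Tubb2b shares 30.2% of its 75-base windows with other genes, mostly Tubb2a. Moxd1, a monooxygenase-like protein, had 91.8, 74.7, 0.61 and 150.4 CPM in CCR2high and 299.6, 351, 199 and 556 CPM in CCR2low macrophages without overlap, with only trace counts in the CCR2high library of mouse 24 (log2 fold change -2.85 ± 0.86 (SE)). Cldn5, the tight junction claudin of brain endothelium, had 1.27, 5.97, 0 and 3.24 against 47.5, 21, 26.6 and 39.9 CPM, also without overlap (log2 fold change -4.37 ± 1.23 (SE)). Serpina3n, a protease inhibitor of reactive astrocytes, had 38.9, 30.7, 1.22 and 162 against 129.6, 157, 51.4 and 243 CPM and was lowest in mouse 24 in both populations. Tuba1a, an alpha tubulin abundant in neural cells, had 195, 209, 103 and 369 against 329.5, 532, 242 and 651 CPM (log2 fold change -1.01 ± 0.23 (SE)), but shares 70.4% of its windows with other genes, mostly Tuba1c. Dbi, the acyl-CoA-binding protein, had 286, 323, 164 and 276 against 375, 509.8, 216 and 456 CPM and the smallest change of the 12, -0.54 ± 0.16 (SE).

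**Figure D3:**
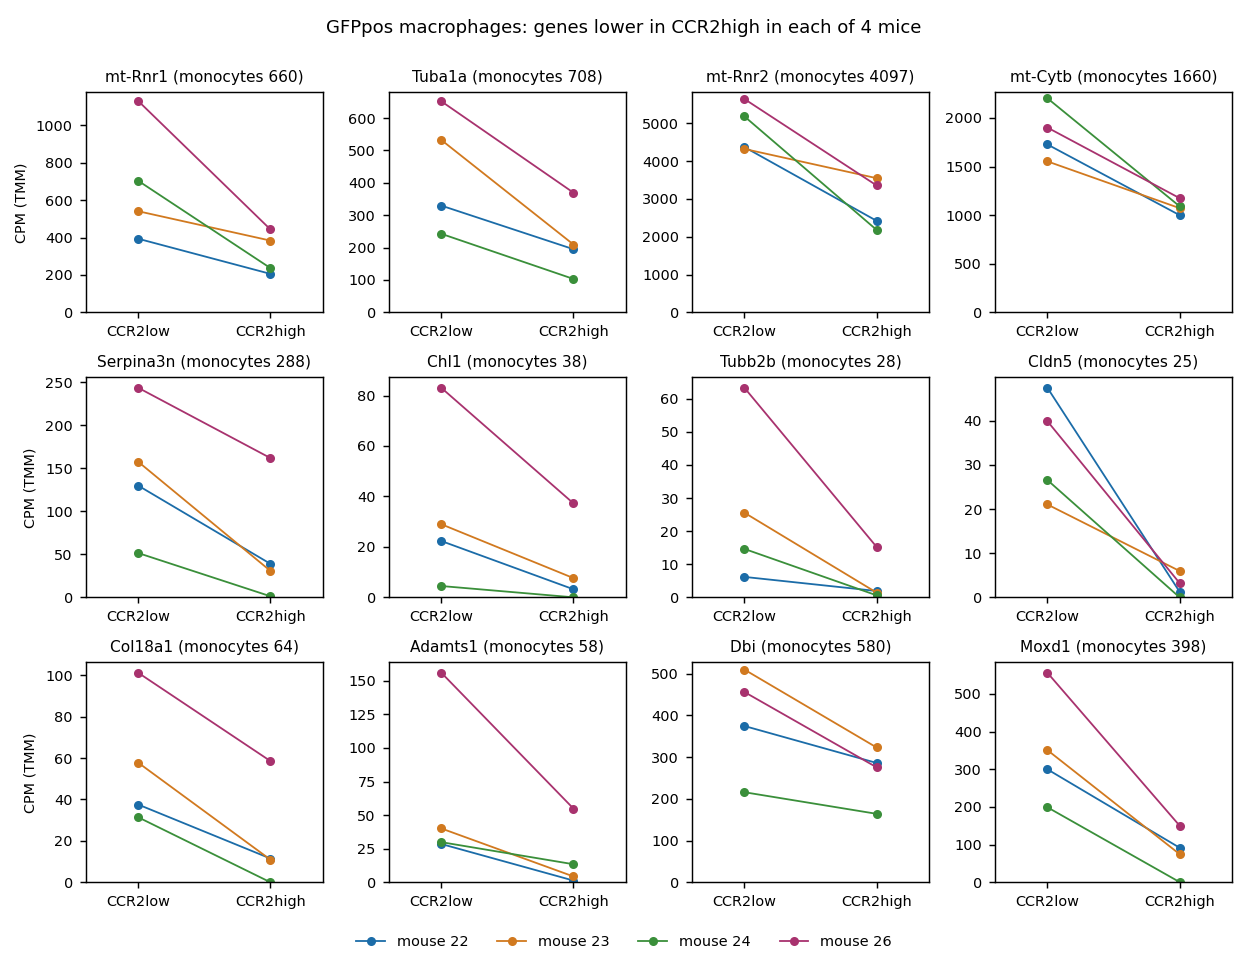
CPM of the 12 genes chosen as lower in GFPpos CCR2high macrophages, drawn as in the plot of the higher genes, on linear axes from 0. The CCR2high library of mouse 24 has 0 CPM for Chl1, Cldn5 and Col18a1, and mt-Cytb runs from 1553 to 2202 CPM in CCR2low and from 1000.4 to 1175 CPM in CCR2high cells.

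The list of glial, neuronal and glioma cell genes had the lowest median, -1.08 over 15 tested of 23 genes. Of the 15, 14 had a negative fitted value, 4 were lower and 0 higher at an unadjusted p under 0.05, 6 were lower in each mouse, and none passed across all genes. Over all genes 2.32% were lower at that threshold and 9.38% lower in each mouse. The 4 genes of the list at that threshold were Nes (nestin), Cspg4 (NG2), Ptprz1 and Mog. Cspg4, of oligodendrocyte precursors and pericytes, had 3.82, 10.5, 0 and 22.2 against 8.07, 30.1, 16.1 and 72.9 CPM, and Nes, an intermediate filament of neural progenitors and glioma cells, had 0.637, 0.412, 0 and 2.31 against 6.65, 7.92, 1.79 and 7.98 CPM. The summed level was 495 to 586 CPM in CCR2high and 576 to 786 CPM in CCR2low libraries, lower in CCR2high in each mouse. The median was -1.04 without the CCR2high library of mouse 24 and -0.66 without mouse 23, and in GFPneg macrophages it was 0.17. The 10 endothelial and mural genes tested had a median of -0.91, with Cldn5 and Tek lower at that threshold. Without mouse 24 it was -0.38, and their sum was not lower in mouse 26. Of 24 matrix and protease genes, Adamts1, Col3a1 and Serpinb2 were lower and Plaur, the urokinase receptor, was higher (464, 268, 331 and 416 against 285, 194, 229.6 and 259 CPM), with a median of -0.35, and -0.21 without the CCR2high library of mouse 22. The part of such cells, or of tumor membrane bound to GFPpos macrophages, in these values was not tested.

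Transcripts of lymphocytes were present in both populations. All 8 tested B and plasma cell genes had negative fitted values, 5 were lower in each mouse and 1, Cd79a of the B cell receptor, was lower at an unadjusted p under 0.05, with 29.9, 26.4, 119.6 and 5.32 against 69.3, 55, 195 and 9.58 CPM. The sum of the list was 283 to 1225 CPM in CCR2high and 253 to 1900 CPM in CCR2low libraries and was not lower in mouse 26. The median was -0.91, and -1.31 without the CCR2high library of mouse 24. Among 16 T and NK cell genes the NK receptor Ncr1 alone was higher at that threshold, with 15.3, 14.8, 13.4 and 10.2 against 2.37, 2.72, 1.19 and 0.532 CPM without overlap, and Klrb1c, another NK receptor, had 24.2, 18.5, 19.5 and 12.7 against 5.22, 8.6, 9.56 and 11.2 CPM. Cd4, a coreceptor of T cells also found on myeloid cells, was lower without overlap, at 56.1, 57.7, 32.3 and 59.9 against 90.2, 120.2, 92.3 and 92.6 CPM (log2 fold change -0.96 ± 0.17 (SE), adjusted p 0.0286 in the macrophage fit). Of the 16 genes of this list, 9 had positive and 7 negative fitted values, and 4 were higher and 1 lower in each mouse. Over all genes 7.46% were higher and 9.38% lower in each mouse. The median of the list was 0.09, and -0.10 without the CCR2high library of mouse 23. The part of these cells in the other results was not tested.

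**Figure D4:**
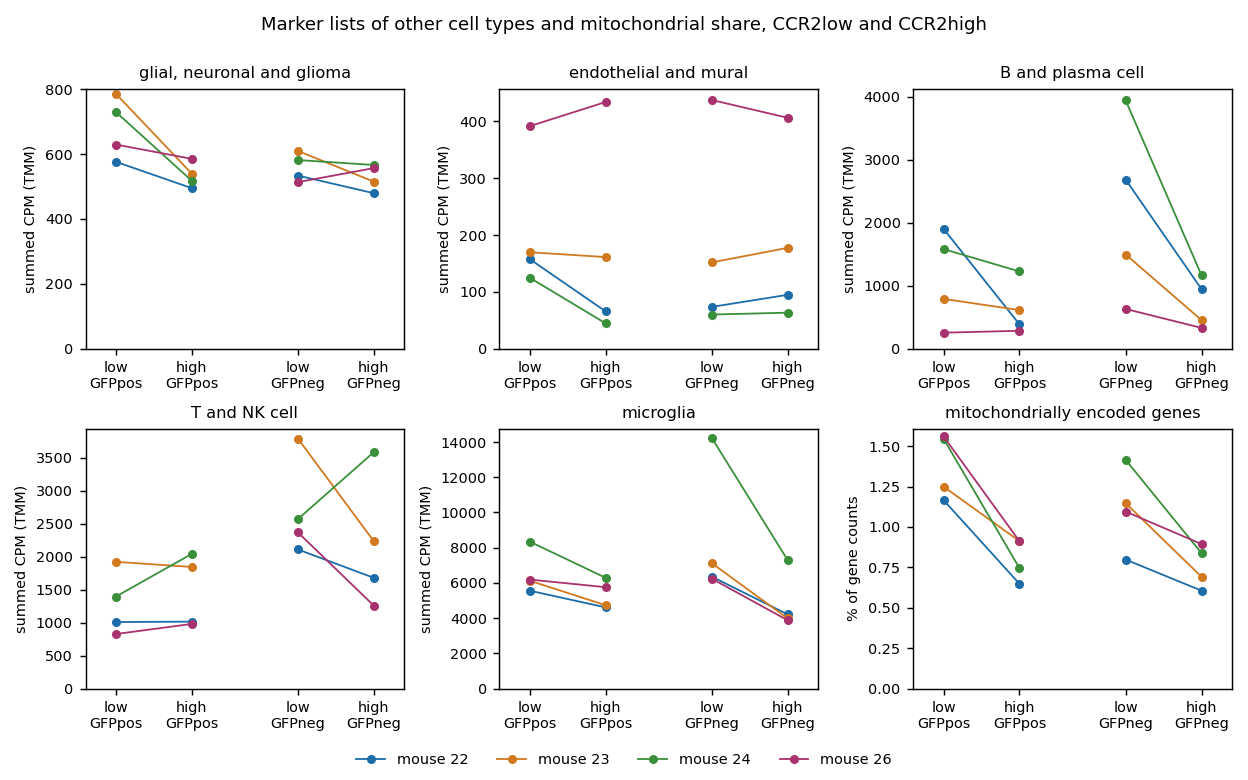
Summed CPM of marker lists of other cell types, and the share of gene counts on mitochondrially encoded genes in percent, in CCR2low and CCR2high macrophages with and without GFP, with a line for each of 4 mice and axes from 0. The mitochondrial share runs from 1.17% to 1.56% in GFPpos CCR2low and from 0.648% to 0.912% in GFPpos CCR2high libraries.

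Lists of resident and mature macrophages had medians from -0.37 to -0.03. The 13 microglia genes had a median of -0.17, 12 negative fitted values, and 0 reached an unadjusted p under 0.05. Their sum was lower in CCR2high cells in each mouse, at 4612, 4735, 6292 and 5758 against 5559, 6125, 8344 and 6190 CPM. Sparc, a matrix-binding secreted protein, had 353, 511, 579.7 and 699.8 against 612, 714, 747 and 793 CPM, and Tmem119 had 704, 689, 1018 and 761 against 916, 894, 1222 and 597 CPM. In GFPneg macrophages the same list had a median of -0.94 with 11 of 13 genes lower at that threshold, and whether the lists differ between GFPpos and GFPneg cells was not tested as such. The 18 genes of mature macrophages had a median of -0.03, the 12 of border-associated macrophages -0.37 and the 20 of lipid-associated macrophages -0.09. With a mouse or library left out all of these medians moved, but only that of mature macrophages changed sign. The microglia median ran from -0.37 without mouse 26 to -0.10 without the CCR2high library of mouse 24. The border-associated median was -0.09 without the CCR2high library of mouse 26. The mature macrophage median ran from -0.12 without the CCR2high library of mouse 23 to 0.04 without the CCR2low library of mouse 24, and the lipid-associated one from -0.19 without mouse 26 to -0.0011 without the CCR2low library of mouse 24. Of these genes Igf1 alone reached the threshold, lower in each mouse at 32.5, 82.6, 83.6 and 56.7 against 50.3, 169, 147 and 126 CPM. No member reached it among 16 complement, 26 lysosome, 15 scavenger receptor, 13 iron, 28 glycolysis, 29 cell cycle, 12 neutrophil and 4 erythroid genes, whose medians ran from -0.27 to 0.14.

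The same contrast was made in the GFPneg macrophages of the same mice, from other libraries. There 3 genes (0.0259%) were called, Ly6i (1.73, adjusted p 5.04e-05) and Ccr2 (1.81, adjusted p 0.0234) higher and Cd79a (-2.41, adjusted p 0.0201) lower in CCR2high cells, on the log2 scale, and 421 genes had an unadjusted p under 0.05. All 12 genes chosen as higher in GFPpos cells had the same sign in GFPneg cells, 11 of them at an unadjusted p under 0.05. Of the 12 chosen as lower, 8 had the same sign and 3, all mitochondrial, an unadjusted p under 0.05. Over all 11566 genes, 175 were higher and 246 lower at that threshold in GFPneg cells, and the share with the same sign was not taken. The 12 higher genes include Ccr2, the gene of the gate in both contrasts. Mice and sort are shared, so this is not an independent replication. Serpina3n, Moxd1 and Col18a1 had GFPneg values of 0.62, 0.30 and 0.22. When the contrast in GFPneg cells was subtracted from that in GFPpos cells, the edgeR count was 0 of 11566 genes (0%), with 182 genes at an unadjusted p under 0.05 and 2 calls by DESeq2. With a median standard error of 0.83 for this difference, only large ones were detectable. Across the 8068 genes the log2 fold changes had a Pearson correlation of 0.296 and a Spearman correlation of 0.273, a description, since genes are not replicates and the mice are shared.

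**Figure D5:**
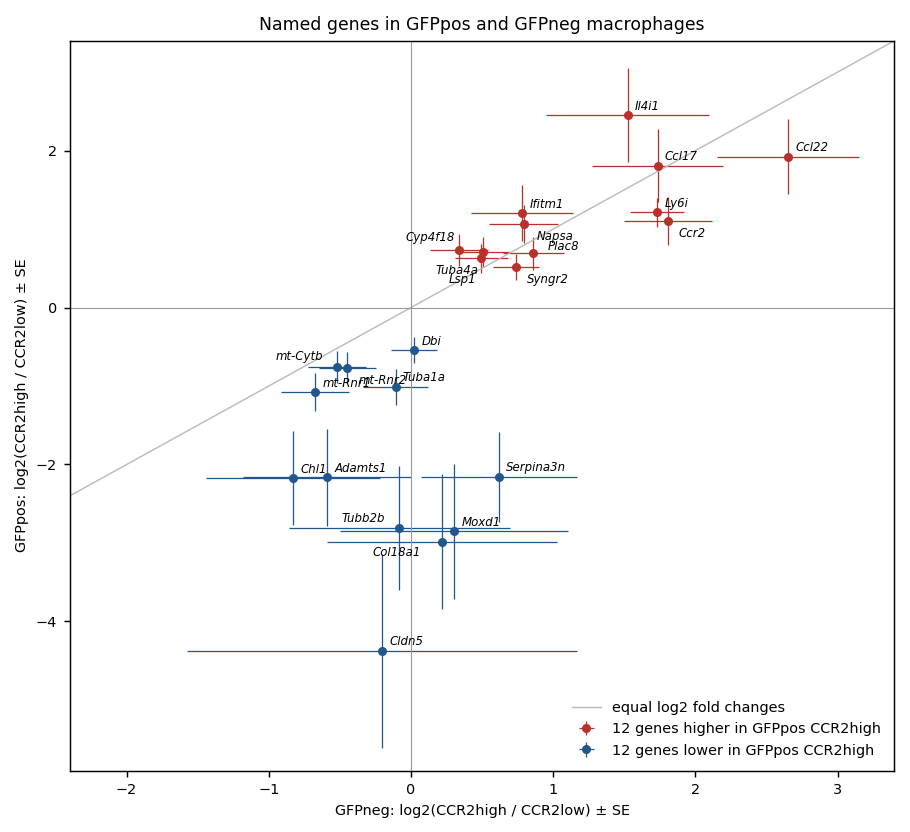
Fitted log2 ratio of CCR2high to CCR2low in GFPpos (vertical axis) against GFPneg macrophages (horizontal axis), with standard errors, for the 24 genes chosen by their GFPpos values, and a line of equal values. Genes chosen as higher lie to the right of 0, and those chosen as lower scatter from -0.83 to 0.62 in GFPneg cells.

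The mean of both contrasts, a test added after the values had been seen, called 14 genes (0.121%). Of these 11 were higher in CCR2high cells: Ly6i, Ccr2, Napsa, Plac8, Ifitm6, Ccl22, Ccl17, Syngr2, Mcemp1, Lyz1 and Gm9733. Ccr2 was higher by 1.46 with an adjusted p of 0.00458, Ccl22 by 2.29 with 0.0102 and Ccl17 by 1.77 with 0.031, on the log2 scale. The 3 lower genes were mt-Rnr1 (-0.88), Cd79a (-1.66) and Lrrc3. With any mouse left out this count was 1 to 3, and without the mouse in the model it was 0.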

How the data were processed

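The deposited values are read counts per gene and library, which the authors made by alignment to mm10 with STAR, removal of duplicates with Picard 1.8.4 and counting of reads that lie wholly within a GENCODE GRCm38 gene by htseq-count. The strand setting is not given in the sources used here. Duplicate removal without molecular identifiers can lower the counts of abundant genes. The tables hold 45317 genes and 92 spike-ins. Of 30 libraries 1 had fewer than 6000 genes with 5 reads and was left out, and 2 of 1 sample were summed, which left 28 replicates of 8 populations. edgeR 4.0.16 in R 4.3.3 was used for TMM scaling, its default filter on low counts and a robust quasi-likelihood fit on all 28 with population and mouse as terms (17 residual degrees of freedom), with Benjamini-Hochberg adjusted p under 0.05 as a call. SE and log2 fold changes come from that fit unless the fit on the 4 macrophage populations is named, and all tests are two-sided. Populations with the same number came from the same mouse. Deviations of the paired libraries correlated at 0.285, -0.0827, 0.426 and 0.364 in mice 22, 23, 24 and 26, and those of different mice at -0.451 to 0.350. The genes described first were, in each direction, the 12 with the smallest p at a mean of 10 CPM or more that moved alike in 4 of 4 mice, and from each of 33 lists up to 3 genes. Further genes of the macrophage fit, of short list counts and of the mean contrast were named after their values were seen. The samples and lists were chosen with earlier results of these data known. Alternatives were other scalings and filters, DESeq2 1.42.0, a model without mouse, fits on fewer populations, and leaving out each mouse or library. The procedure was tested on simulated data. Coordinates are from GENCODE vM21 on GRCm38. Values of 1 listed gene are not reported here.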

Additional observations from a re-analysis of the deposited data

Results flagged for a closer look

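In each population of 4 libraries, the highest or lowest library was compared with its nearest neighbour for 76 genes, and 13 of 152 groups held a library far from the rest by Dixon's criterion, which chance alone gives in about 1 in 20 groups. In the CCR2high GFPpos library of mouse 23 this held for Zfp36 (lowest, 2348 CPM against 2827 to 2880 CPM). In the CCR2high GFPpos library of mouse 24 this held for Il4i1 (highest, 46.4 CPM against 24.5 to 27.3 CPM), Moxd1 (lowest, 0.61 CPM against 74.8 to 150 CPM), Ifitm6 (highest, 18.9 CPM against 8.44 to 8.92 CPM), Clec4e (lowest, 20.1 CPM against 70.8 to 89.8 CPM), Cd4 (lowest, 32.3 CPM against 56.1 to 59.9 CPM) and Ptprz1 (lowest, 0 CPM against 4.46 to 5.78 CPM). In the CCR2high GFPpos library of mouse 26 this held for Ifitm1 (highest, 389 CPM against 153 to 171 CPM), Tnfsf9 (highest, 78.2 CPM against 28.1 to 32.5 CPM) and Ass1 (lowest, 27.3 CPM against 81.8 to 86 CPM). In the CCR2low GFPpos library of mouse 23 this held for Cd4 (highest, 120 CPM against 90.2 to 92.6 CPM). In the CCR2low GFPpos library of mouse 24 this held for Ccr7 (highest, 185 CPM against 90.1 to 101 CPM) and Nes (lowest, 1.79 CPM against 6.65 to 7.98 CPM).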

How the results depend on the processing

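With DESeq2 size factors, no filter on low counts or at least 10 counts in every library compared, the count of calls in GFPpos macrophages was 1, as in the report. Without the replicate block, that is without the pairing by mouse, it was 0, and the counts were also 0 in GFPneg macrophages, for the mean of both contrasts and in the fit on macrophages alone. With spike-in scaling all but the last of these, which was not run so, were 0. In GFPpos macrophages the count was 11 by the Wald test of DESeq2, 22 in the fit on macrophages, 3 on brain populations, 0 on the compared populations and 0 to 1 with a mouse or library left out. In GFPneg macrophages, against 3, it was 35, 149, 54 and 110 in the same order, and 1 to 2 with a mouse left out (single libraries were not left out). For the difference of the contrasts, against 0, it was 2 by the Wald test and 1 on brain populations. For the mean of the contrasts, against 14, it was 67 by the Wald test, 261 on macrophages, 118 on brain populations and 1 to 9 with a mouse or library left out. In the fit on macrophages the count, against 22, was 0 to 13 with a mouse left out, and those calls were not all among the 22. The mean of the contrasts, and this last fit with a mouse left out or without the block, were added after seeing the data. Of 76 genes, 73 kept their direction under every alternative run. Ptprc was at -0.24 under spike-in scaling and at -0.14 to 0.17 with a mouse or library left out, and Cd74 and H2-Ab1 were at -0.053 and -0.0069 under spike-in scaling. The causes were not tested. In the library of 1710065 counts, 3 counts limit what a count of 0 can show.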
